A study of Mus musculus with 2 samples.

Results

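Nonclassical monocytes were taken from single-cell RNA sequencing of the neonatal mouse lung as barcodes that carried the myeloid genes *Tyrobp* and *Csf1r* and at least 3 UMIs, in sum, of *Treml4*, *Adgre4*, *Ace* and *Fcgr4*. A UMI is a molecular tag that counts 1 captured transcript. Barcodes were left out when they held 4 or more UMIs of the alveolar macrophage genes *Plet1*, *Atp6v0d2*, *Marco* and *Ear2*, 20 or more of the neutrophil genes *S100a8* and *S100a9*, or any UMI of *Cd3e*, *Cd79a*, *Cdh5* or *Epcam*, which mark T cells, B cells, endothelial cells and epithelial cells. The rule found 266 cells among 15520 kept cells, meaning barcodes that show 500 genes or more and no more than 20% of UMIs from mitochondria. Of these, 151 came from the room air library and 115 from the hyperoxia library. The cells were therefore chosen by measured levels of these 16 genes, and the levels of those genes in them are given as a description.

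The study compared C57BL/6 mice kept in room air (21% O2) with mice kept in hyperoxia (80% O2) from birth to postnatal day 14, a model of the lung injury of preterm infants. Lungs were taken at 2 weeks of age, digested with enzymes and run on a droplet platform that reads the 3′ ends of transcripts. Each condition is 1 library that pools the cells of 8 mice, with no sort for a cell type, from mice that the study describes as wild type. Mice, litters and library cannot be told apart from oxygen in this design, so the values below compare 2 libraries, carry no p-value, and have 95% intervals that cover counting error only.

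Monocytes of the mouse fall into a classical group, which expresses *Ly6c2* and *Ccr2* and enters inflamed tissue, and a nonclassical group, which develops largely from the first. Nonclassical monocytes depend on the nuclear receptor gene *Nr4a1*, carry high levels of the chemokine receptor gene *Cx3cr1* and the integrin gene *Itgal*, and crawl along the inner wall of small vessels, where they survey the endothelium and take up debris. The lung holds many of them in its capillaries.

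The rule genes encode surface proteins. *Treml4* (chr17:48264295-48275360, mm10) is a receptor that binds dead cells, *Adgre4* (chr17:55749984-55853662) an adhesion receptor, *Ace* (chr11:105967945-105989964) the enzyme that converts angiotensin, and *Fcgr4* (chr1:171018920-171029761) an activating IgG receptor. In CPM, which are counts scaled to 1e6 UMIs summed over the cells, *Treml4* stood at 230 in room air and 170 in hyperoxia, *Adgre4* at 344 and 274, *Ace* at 395 and 315, and *Fcgr4* at 289 and 316. The sum of the 4 genes per cell was 7 UMIs at the median in room air (quartiles 5 and 11, highest 33) and 5 in hyperoxia (quartiles 4 and 9, highest 28). All 4 genes were detected in 51 of 151 cells in room air and 30 of 115 in hyperoxia, whereas 8 and 18 cells passed on 1 gene alone. At the threshold stood 24 and 27 cells with exactly 3 UMIs, and just outside it 30 and 38 cells with 2 UMIs that met every other condition. In that order of libraries, *Clec4a3* was at 368 and 307 CPM just inside the threshold and at 278 and 284 CPM just outside it, and *Spn* was at 64.6 and 54.2 CPM inside and 17.8 and 29.5 CPM outside. Other genes did not separate the cells in that way. *Ly6c2* was at 849 and 646 CPM inside and at 775 and 332 CPM outside. *Nr4a1* was at 626 and 845 CPM inside and 721 and 803 CPM outside. The macrophage gene *C1qa* was at 636 and 2503 CPM inside and 1574 and 1392 CPM outside.

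The depth of nonclassical monocytes was alike in both libraries. They held 5695 UMIs and 2019 genes at the median in room air against 5798 UMIs and 2055 genes in hyperoxia, and the median mitochondrial share was 1.74% and 2.31%. They held 1051989 and 743336 UMIs in all, so that 1 UMI was worth 0.951 and 1.35 CPM. The files held 4234 and 13223 barcodes, of which 3809 and 11711 were kept with medians of 8299 and 8009 UMIs. Of the barcode sequences, 17 occurred in both libraries, and 1 of the 266 cells, in hyperoxia, bore such a barcode. *Xist* and the Y-linked *Ddx3y* were both present in each pool (170 and 126 CPM, and 106 and 132 CPM).

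Among genes that the rule did not use, *Clec4a3* (chr6:122952515-122969875), a C-type lectin gene of monocytes, was detected in 91.4% of the cells in room air (85.7% to 95.3%) and 85.2% in hyperoxia (77.4% to 91.1%). It was found in 0.358% and 0.400% of B cells (at least 2 UMIs of *Cd79a* and 1 of *Cd79b*, none of *Tyrobp* or *Csf1r*), which should lack it and whose median depth was 4563 and 2974 UMIs. *Clec4a3* was not particular to nonclassical cells. Classical monocytes, set here as *Tyrobp*+ *Csf1r*+ cells with at least 2 UMIs of *Ly6c2*, at least 1 of *Ccr2*, fewer than 3 UMIs in sum of the 4 rule genes and the same exclusions, carried it in 92.3% of 39 cells in room air and 84.4% of 77 in hyperoxia, and its CPM was 1.5-fold (1.24 to 1.82) and 1.55-fold (1.30 to 1.85) higher in nonclassical cells.

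Some other identity genes separated the populations further, and folds are given for those alone. *Eno3*, the muscle form of enolase and a known gene of nonclassical monocytes, was 51.8-fold (14.2 to 430) and 60.4-fold (10.5 to 2424) higher than in classical monocytes in room air and hyperoxia, where it had 2 and 1 UMIs. The scavenger receptor gene *Cd36* was 50.9-fold (13.97 to 423) and 26.1-fold (11.8 to 72.2) higher on 2 and 6 classical UMIs. *Spn*, which encodes the sialomucin CD43, was 8.32-fold (3.95 to 21.0) and 4.08-fold (2.62 to 6.58) higher. *Hes1*, a Notch target, was 5.92-fold and 5.56-fold higher, *Pou2f2* 3.07-fold and 4.56-fold, *Cx3cr1* 2.41-fold and 2.66-fold, and *Itgal* 1.52-fold and 2.29-fold. Without the C1q-high cells described below, *Cx3cr1* was 1.98-fold and 1.62-fold higher. *Nr4a1* differed less, at 1.06-fold (0.922 to 1.21) and 1.35-fold (1.21 to 1.51). The list of 23 identity genes as a sum also stood closer. It was at 15775 CPM against 12126 in classical monocytes in room air, and at 13616 against 10043 in hyperoxia.

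Among genes outside the rule with at least 100 CPM in nonclassical monocytes of both libraries, a level that *Eno3* does not reach in hyperoxia, the 10 that stood furthest above classical monocytes were *Pf4*, *C1qa*, *C1qb*, *C1qc*, *Cd36*, *Slc12a2*, *Bcl2a1b*, *Lair1*, *Tcf7l2* and *Cd81*. The inhibitory collagen receptor gene *Lair1* was 8.30-fold and 10.5-fold higher, the ion transporter gene *Slc12a2* 25.1-fold (8.47 to 123, on 3 classical UMIs) and 22.1-fold, the survival gene *Bcl2a1b* 20.1-fold and 9.57-fold, the transcription factor gene *Tcf7l2* 9.94-fold and 6.53-fold, and the tetraspanin gene *Cd81* 8.95-fold and 6.22-fold. C1q-high cells, described next, held all or nearly all UMIs of *Pf4* and the C1q genes in hyperoxia, 75.3% of those of *Cd81* and 54.8% of those of *Bcl2a1b*. Without these cells *Cd81* was 5.61-fold and 2.08-fold higher than in classical monocytes, and *Bcl2a1b* 19.9-fold and 5.88-fold. *Bcl2a1b* has near-identical copies in the genome and its reads can be split among them. Among the 10 in the other direction, with at least 100 CPM in classical monocytes, were *Ly6c2*, *Ccr2*, *F13a1*, *Vcan*, *Fn1*, *S100a10*, *Ethe1*, *Lbr* and *Vim*. The first pair is fixed by the choice of classical cells. The coagulation factor gene *F13a1* was at 0.193 and 0.165 of the classical level, and the matrix proteoglycan gene *Vcan* at 0.382 and 0.304.

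The complement genes *C1qa*, *C1qb* and *C1qc*, which mark interstitial macrophages, came from a minority of the cells. In room air, 143 of 151 cells had no C1q UMI and 2 had 1 to 9, while 6 (3.97%, 1.47% to 8.45%) had 17 to 265, with a median of 179. In hyperoxia, 95 of 115 cells had none and 4 had 1 to 9, while 16 (13.9%) had 15 to 297, with a median of 172. These 22 cells, all with 10 or more C1q UMIs and called C1q-high here, go against the label in part. They held 99.7% of the *C1qa* UMIs in hyperoxia, none had 2 or more UMIs of *Ly6c2*, their depth had a median of 15233 and 10607 UMIs against 5363 and 5108 in the others, and the sum of the 4 rule genes in them had a median of 6.5 UMIs against 7 in room air and 3.5 against 6 in hyperoxia. A ranking by simulated doublets removed 3 and 5 of the 151 and 115 cells, of which 1 and 2 were C1q-high; the part of droplets with more than 1 cell in the rest was not tested. Of the rule genes, *Fcgr4* was at 275 CPM in the C1q-high cells of hyperoxia against 331 in the other nonclassical cells. *Treml4* was at 45.9 against 214, *Adgre4* at 91.7 against 340 and *Ace* at 61.2 against 406. In room air *Fcgr4* was at 204 against 297, *Treml4* at 10.7 against 251, *Adgre4* at 193 against 359 and *Ace* at 53.6 against 429. Values that turn on the C1q-high cells are given below without them as well, or with the share of UMIs those cells held.

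**Figure D1:**
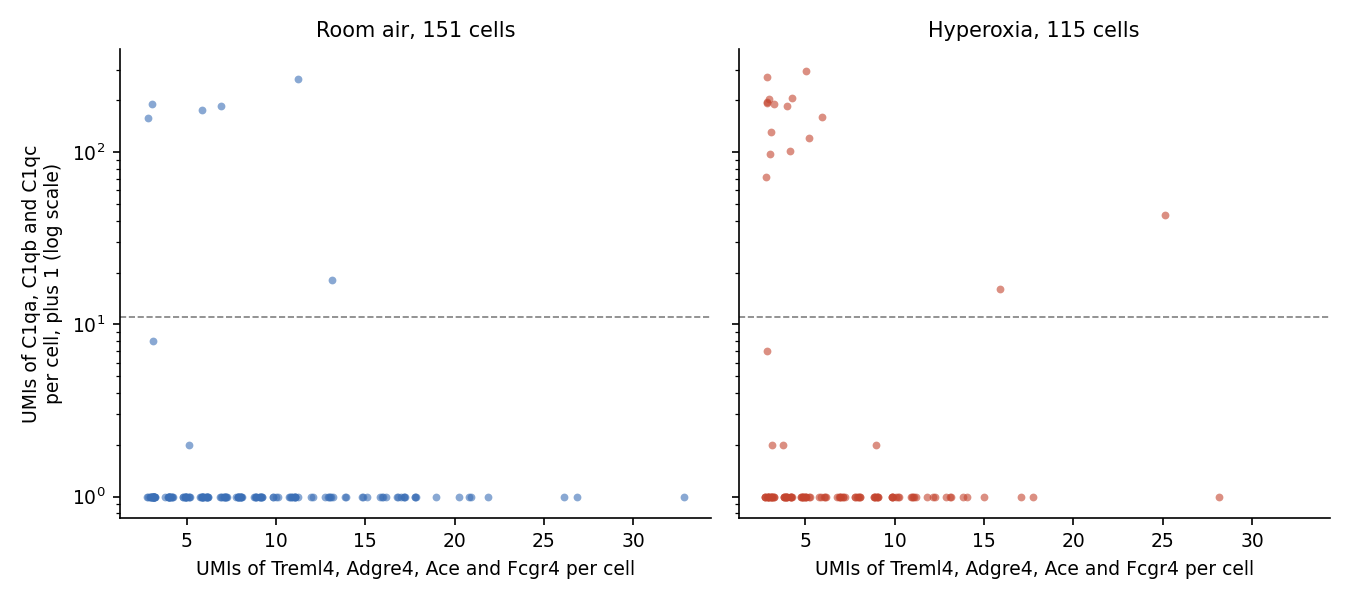
Each point is 1 nonclassical monocyte, with the UMIs of the 4 rule genes on the horizontal axis (points shifted slightly sideways to show overlap) and the UMIs of the 3 C1q genes plus 1 on a log vertical axis. The dashed line marks 10 C1q UMIs, and 6 of 151 cells in room air and 16 of 115 in hyperoxia lie above it, most of the second set at the low end of the horizontal axis.

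*Ly6c2* was detected in part of the population, at up to 98 UMIs in a cell of room air and 31 in hyperoxia. Cells with at least 2 UMIs meet the *Ly6c2* cut set for classical monocytes, so they also go against the label in part. At least 2 UMIs were found in 45 cells in room air (29.8%, 22.6% to 37.8%) and 28 in hyperoxia (24.3%, 16.8% to 33.2%). After every cell was thinned to 2000 UMIs, *Ly6c2* was detected in 25.9% of 147 and 26.8% of 112 cells, against 35.8% and 33.0% unthinned. The share in B cells was 6.23% and 2.34% after thinning. The share with at least 2 UMIs differed by -5.45 percentage points, with an interval from -16.4 to 5.96 that holds 0.

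Nonclassical monocytes made up 3.96% of kept cells in room air (151 of 3809, 3.37% to 4.63%) and 0.982% in hyperoxia (115 of 11711, 0.811% to 1.18%). The share in hyperoxia was 2.98 percentage points lower (2.35 to 3.67), or 4.04-fold (3.15 to 5.19). Because a share of all cells moves with every other lineage captured, the same cells were set against the *Tyrobp*+ *Csf1r*+ cells, of which there were 544 and 856. On that scale they made up 27.8% in room air (24.0% to 31.7%) and 13.4% in hyperoxia (11.2% to 15.9%), which is 2.07-fold lower. *Tyrobp*+ *Csf1r*+ cells themselves were 14.3% and 7.31% of kept cells. A lower share of cells and a loss of the 4 transcripts from cells that stay cannot be told apart here, nor were cells counted per lung.

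Classical monocytes were 1.02% and 0.658% of kept cells and 7.17% and 9.0% of *Tyrobp*+ *Csf1r*+ cells. C1q macrophages, set as cells with at least 10 C1q UMIs, fewer than 3 UMIs in sum of the 4 rule genes and fewer than 2 of *Ly6c2*, were 0.945% and 0.862% of kept cells and 6.62% and 11.8% of *Tyrobp*+ *Csf1r*+ cells. Of the 2 monocyte populations together, nonclassical cells formed 79.5% in room air and 59.9% in hyperoxia. Without the C1q-high cells, nonclassical monocytes were 3.81% and 0.845% of kept cells, 4.50-fold lower in hyperoxia.

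The exclusions took out many cells. Of 296 cells in room air and 275 in hyperoxia that reached 3 UMIs of the 4 genes, 145 and 160 failed at least 1 exclusion. The alveolar macrophage genes removed 111 and 103, and *Cdh5* removed 34 and 70. *Ace* and *Cdh5* are also endothelial genes, and the part of free endothelial RNA in the *Cdh5* count was not tested. Of the alveolar macrophage genes, *Ear2* was also detected in 68.2% and 56.5% of the nonclassical monocytes that passed. It was at 168 and 161 CPM in them, against 48.2 and 35.6 CPM in classical monocytes. How many nonclassical monocytes the exclusion on these genes removed was not tested.

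**Figure D2:**
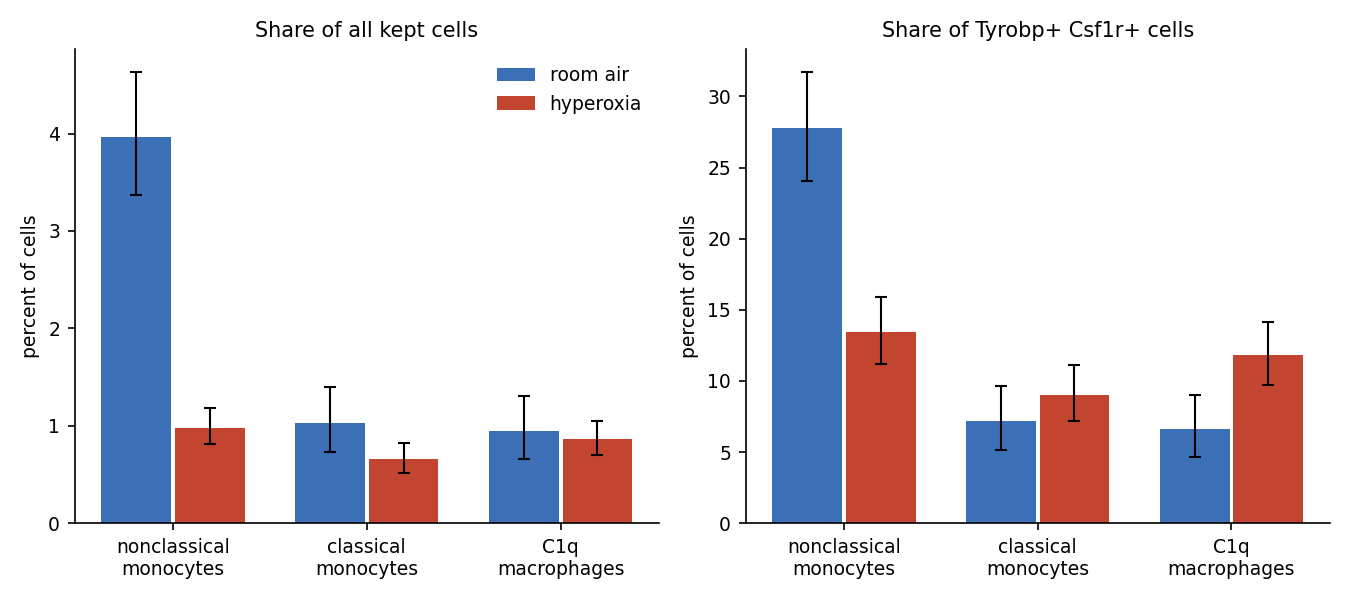
Bars give the percent of cells in nonclassical monocytes, classical monocytes and C1q macrophages in room air and hyperoxia, of all kept cells (left) and of Tyrobp+ Csf1r+ cells (right), with exact 95% binomial intervals as error bars. The nonclassical bars are at 3.96% and 0.982% on the left and at 27.8% and 13.4% on the right, and the C1q macrophage bars on the right are at 6.62% and 11.8%.

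Expression within nonclassical monocytes was then set side by side between the libraries, for the 3040 genes with a mean of at least 50 CPM. Of these, 74 (2.43%) were at least 2-fold higher in hyperoxia and 32 (1.05%) at least 2-fold lower, and the log2 ratio (always hyperoxia over room air) had a median of 0.02. Of all genes, 48.0% were lower and 52.0% higher, and the interval lay below 0 for 448 (14.7%) and above 0 for 457 (15.0%). A 2-fold difference is a size and not a test here. Over the same genes, 53 (1.74%) were at least 2-fold higher and 33 (1.09%) lower without the C1q-high cells, and 10.6% had an interval below 0 and 13.1% above.

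**Figure D3:**
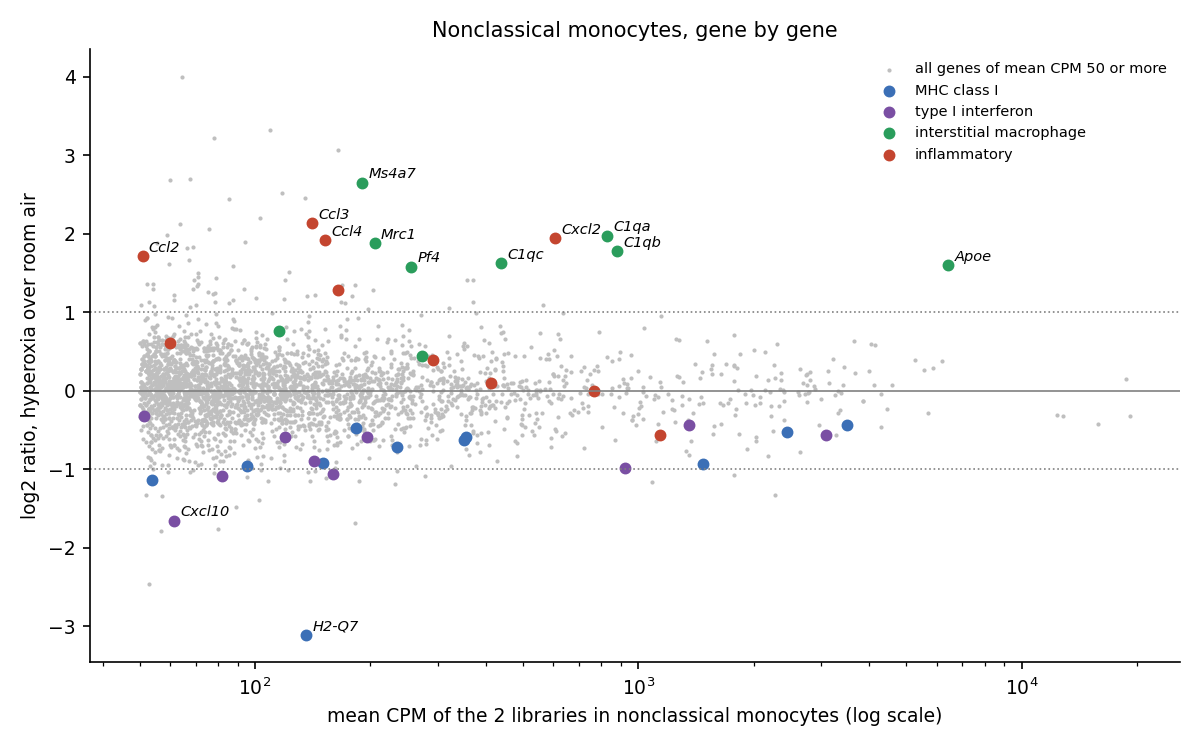
Each point is 1 of the 3040 genes, with the mean CPM of both libraries in nonclassical monocytes on a log horizontal axis and the log2 ratio on the vertical axis, and dotted lines at 2-fold. MHC class I genes (blue) and type I interferon genes (purple) all lie below 0, and 7 of the 9 interstitial macrophage genes (green) and *Cxcl2*, *Ccl3* and *Ccl4* (red) lie above 1.

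Genes of MHC class I presentation were lower in hyperoxia throughout. All 11 listed genes of sufficient level were lower, each with an interval below 0, beside 14.7% of all genes, at a median log2 ratio of -0.72. Without the C1q-high cells it was -0.56, again with 11 of 11 intervals below 0, beside 10.6% of all genes. The heavy chain gene *H2-K1* stood at 1942 CPM in room air and 1014 in hyperoxia (log2 ratio -0.94, -1.06 to -0.82), and *H2-D1* at 2875 and 1994 (-0.53). *B2m*, the shared light chain, was at 4029 and 2969 CPM (-0.44). The peptide transporter genes *Tap1* and *Tap2* were at 125 and 64.6 and at 74.1 and 33.6 CPM. Of the immunoproteasome, *Psmb9* had a log2 ratio of -0.93 and *Psmb8* of -0.63, and its activator genes *Psme1* and *Psme2* had -0.59 and -0.72.

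*H2-Q7*, a nonclassical class I gene of the Qa-2 group, had the lowest ratio of the list. It was at 243 CPM (256 UMIs) in room air and 28.3 CPM (21 UMIs) in hyperoxia, a log2 ratio of -3.11 (-3.82 to -2.46), and after thinning to 2000 UMIs it was detected in 35.4% of cells in room air and 7.14% in hyperoxia (63.6% and 11.3% unthinned). In B cells, which also express class I genes, the thinned share was 29.2% and 9.68%. Its neighbour *H2-Q6* was at 89.4 and 16.1 CPM (-2.47). The 2 genes are near-identical and reads can be split or lost between them and further copies, so their separate values are uncertain. In classical monocytes *H2-Q7* was at 13.4 and 2.85 CPM, which is 5 UMIs and 2. The lower level of *H2-Q7* was not particular to nonclassical cells. In C1q macrophages it was at 221 and 24.1 CPM (-3.19, -3.90 to -2.54), and in all other kept cells it had -1.19. *H2-Q6* had -1.74 in C1q macrophages and -1.31 in all other kept cells. Of the 11 genes, *H2-Q7* and *Tap2* were at least 2-fold lower, beside 1.05% of all genes.

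Lower class I levels were also measured outside nonclassical monocytes. The median log2 ratio of the same list was -0.74 in classical monocytes, -0.43 in C1q macrophages and -0.42 in all other kept cells.

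The promoters of the 3 listed class I heavy chain genes and of *B2m* are shown because each holds a match to a motif described below. They were chosen by name and by that match, so they do not stand for the whole list. Stretches of 100 bases upstream of the start are from RefSeq (GRCm38.p6) and read 5′ to 3′ on the strand of the gene. Capitals mark a match, on either strand, to GAANNGAAA, a short form of the interferon-stimulated response element, or in *B2m* to its longer form, GAAA, any 2 bases and GAAA.

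H2-K1 promoter, chr17:34000383-34000482, minus strand: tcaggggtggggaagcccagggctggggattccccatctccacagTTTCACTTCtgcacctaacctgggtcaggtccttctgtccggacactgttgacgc
H2-D1 promoter, chr17:35262899-35262998, plus strand: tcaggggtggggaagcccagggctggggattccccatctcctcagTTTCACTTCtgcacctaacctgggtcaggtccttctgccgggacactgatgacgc
H2-Q7 promoter, chr17:35438997-35439096, plus strand: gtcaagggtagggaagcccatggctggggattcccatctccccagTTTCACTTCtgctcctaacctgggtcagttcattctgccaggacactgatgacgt
B2m promoter, chr2:122147503-122147602, plus strand: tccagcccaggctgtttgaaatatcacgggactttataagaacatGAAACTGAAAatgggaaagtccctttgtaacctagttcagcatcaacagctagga

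In *H2-K1*, *H2-D1* and *H2-Q7* the same letters, TTTCACTTC on the strand shown, stood in nearly the same context. GAANNGAAA was found in 4 of 10 class I genes with a promoter in the table and in 8.68% of all 27025 genes, counted in the same way (7.52% of 32851 promoters). Each promoter runs from 250 bases before to 50 after the start. The longer form was found in 2 of 10 and in 3.99% of all genes (3.44% of promoters). A longer match can also lie over a shorter one. A match describes the letters and not the binding of a factor.

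Genes induced by type I interferon were lower as well. Of 22 listed genes, 10 were of sufficient level, and all 10 were lower in hyperoxia, 9 of them with an interval below 0, beside 14.7% of all genes, at a median log2 ratio of -0.74. With the C1q-high cells left out, 7 of 10 intervals lay below 0, beside 10.6% of all genes, and the median was -0.62. The ubiquitin-like modifier gene *Isg15* was at 111 and 52.5 CPM (-1.08, -1.65 to -0.55), and the transcription factor gene *Irf7* at 216 and 104 (-1.06). The membrane protein gene *Ifitm3*, which restricts viral entry, was at 3676 and 2496 CPM (-0.56, and -0.25 without the C1q-high cells), *Ifi27l2a* at 1225 and 620 (-0.98, and -0.63), and *Ly6e* had -0.44 and -0.11. *Cxcl10* was at 93.2 and 29.6 CPM, but a single cell held 80.6% of its UMIs in room air.

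Below the level for the comparison, *Ifit3* had 34 UMIs in room air and 7 in hyperoxia and *Rtp4* had 57 and 16. The list had a median of -1.19 in classical monocytes, -0.61 in C1q macrophages and -0.62 in all other kept cells. Of 3 interferon gamma genes of sufficient level, *Gbp2* had a log2 ratio of -0.56 and *Irf1* of -0.49, both with an interval below 0, whereas *Gbp7* was higher at 0.61 (0.03 to 1.20). All 3 intervals held 0 when the C1q-high cells were left out.

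Isg15 promoter, chr4:156200842-156200941, minus strand: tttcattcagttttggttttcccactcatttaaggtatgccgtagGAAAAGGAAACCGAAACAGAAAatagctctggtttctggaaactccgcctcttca
Bst2 promoter, chr8:71537548-71537647, minus strand: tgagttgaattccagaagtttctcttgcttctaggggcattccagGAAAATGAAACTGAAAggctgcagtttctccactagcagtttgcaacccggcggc

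These stretches upstream of *Isg15* and *Bst2* are shown because they hold the longer motif in overlapping copies, marked in capitals. It was found in 4 of the 6 interferon genes with a promoter in the table (*Isg15*, *Bst2*, *Ifitm3* and *Cxcl10*), beside the 3.99% of all genes given above. *Bst2*, which tethers virus particles to the cell, was at 235 and 156 CPM (-0.59).

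**Figure D4:**
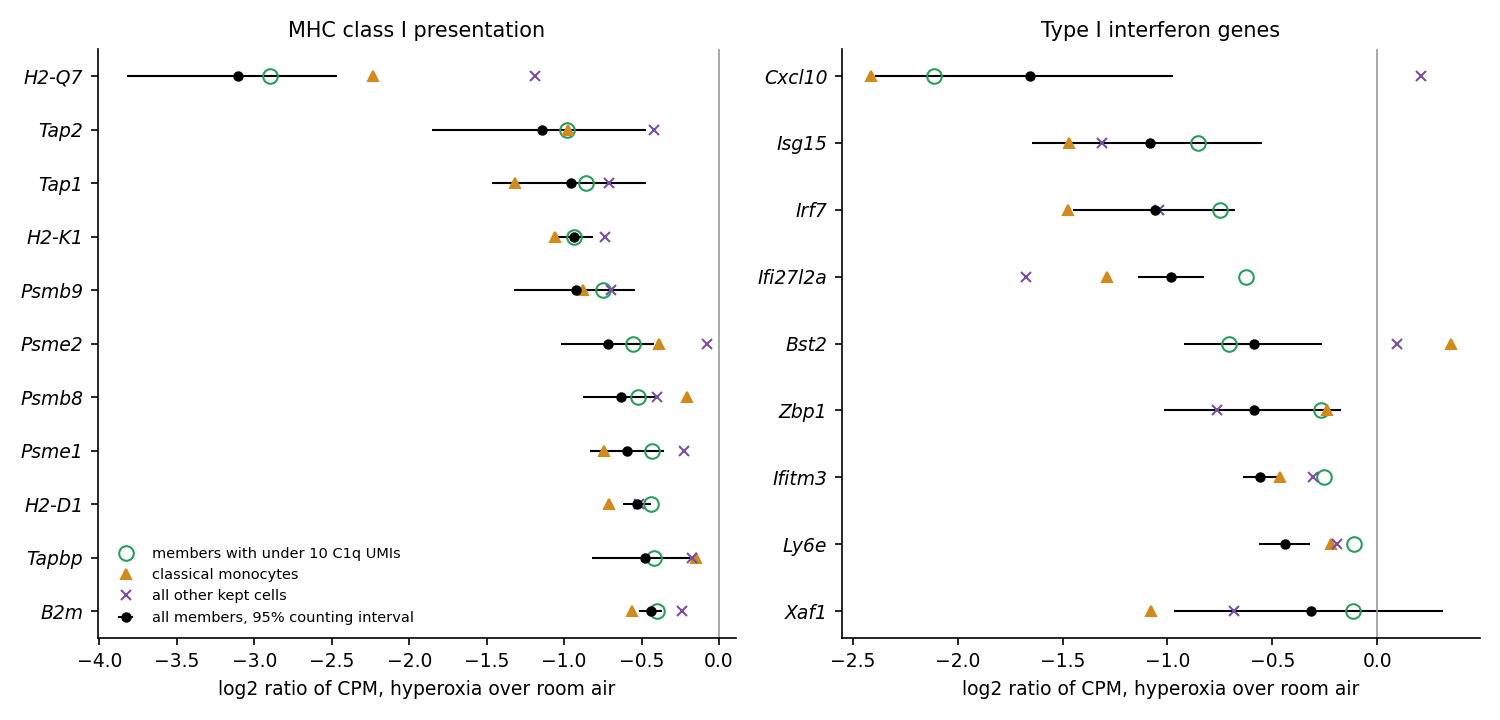
The log2 ratio of CPM, hyperoxia over room air, is drawn for MHC class I genes (left) and 9 of the 10 type I interferon genes (right), as black points with exact 95% counting intervals for all nonclassical monocytes, and as open circles without C1q-high cells, triangles for classical monocytes and crosses for all other kept cells. All black points lie left of 0, from -0.44 for *B2m* to -3.11 for *H2-Q7* on the left panel and from -0.32 for *Xaf1* to -1.65 for *Cxcl10* on the right.

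Genes that define nonclassical monocytes differed in both directions. Of 22 genes of sufficient level, 18 were lower in hyperoxia, 13 with an interval below 0, beside 14.7% of all genes, at a median log2 ratio of -0.30. Without the C1q-high cells the median was -0.15, with 14 lower and 8 intervals below 0, beside 10.6% of all genes. A lower median was not particular to nonclassical cells. The same list had a median of -0.37 in classical monocytes, 0.16 in C1q macrophages and -0.59 in all other kept cells. The summed level of the list was 15775 and 13616 CPM, and 16944 and 16679 CPM without those cells. *Nr4a1* (chr15:101254269-101274795) was higher, at 803 CPM in room air and 1104 in hyperoxia (0.46, 0.32 to 0.60, and 0.58 without the C1q-high cells). *Cx3cr1* was at 232 and 315 CPM (0.44), but at 0.01 without them, since C1q-high cells held 55.1% of its UMIs in hyperoxia. *Itgal* (555 and 556 CPM), *Spn* (156 and 145) and *Cebpb*, a transcription factor gene of this lineage (log2 ratio -0.01), were within counting error between the libraries.

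*Eno3* was at least 2-fold lower, at 278 CPM in room air and 86.1 in hyperoxia (-1.69, -2.10 to -1.29), and at -1.40 without the C1q-high cells. It was detected in 49.7% of cells in room air and 19.6% in hyperoxia after thinning to 2000 UMIs, against 60.9% and 30.4% unthinned, and in 0.389% and 0.222% of B cells. *Eno3* was also lower in all other kept cells (-2.24), and classical monocytes had 2 and 1 UMIs of it. *Gngt2*, a G protein subunit gene, was at 899 and 543 CPM (-0.73), and the peptidoglycan receptor gene *Pglyrp1* at 619 and 347 (-0.83). *Hes1* was at 333 and 206 CPM (-0.69), *Klf2*, a factor of quiescent leukocytes, at 439 and 303 (-0.54), and *Cd274*, which encodes the checkpoint ligand PD-L1, at 91.3 and 48.4 (-0.91). *Plac8* had -0.23 with the C1q-high cells and 0.09 without them.

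Genes of adhesion and crawling had a median of -0.21 over 13 genes. Of these, 6 had an interval below 0 and 1 above 0, beside 14.7% and 15.0% of all genes. Without the C1q-high cells the median was -0.06. The interval then lay below 0 for 0 genes and above 0 for 3, beside 10.6% and 13.1% of all genes. The integrin gene *Itga4* was at 1077 and 861 CPM (-0.32) and *Itgb2* at 430 and 348 (-0.30), whereas *Cd44*, the hyaluronan receptor, was at 864 and 955 (0.14).

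Inflammatory genes were uneven. Of 10 genes of sufficient level, 5 were at least 2-fold higher in hyperoxia, beside 2.43% of all genes, and 4 without the C1q-high cells, beside 1.74%. The neutrophil-attracting chemokine gene *Cxcl2* (chr5:90903871-90905938) was at 250.0 CPM in room air and 965 in hyperoxia (1.95, 1.74 to 2.16), and at 1.67 without the C1q-high cells. After thinning to 2000 UMIs it was detected in 12.2% and 34.8% of cells (18.5% and 44.3% unthinned), and in 1.56% and 2.67% of B cells. *Ccl3* (chr11:83647844-83649355), which encodes a ligand of the *Ccr1* receptor, was at 52.3 and 229 CPM (2.13, 1.68 to 2.60) and *Ccl4* at 63.7 and 241 (1.92). *Ccl2*, the ligand of *Ccr2*, had 25 and 58 UMIs (1.72, and 2.91 without the C1q-high cells).

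Not every gene of the list followed. *Il1b* was lower, at 1360 and 920 CPM (-0.56, -0.70 to -0.43). *Nfkbia*, an inhibitor of NF-kB, was even at 764 CPM in both, and *Tnf* was at 47.5 and 72.6 CPM (0.61). The feedback inhibitor *Tnfaip3* had 1.28 with the C1q-high cells and 0.14 without them. In classical monocytes *Cxcl2* had 2.65, *Ccl3* 0.63 and *Il1b* 0.63, and in all other kept cells *Cxcl2* had 0.97. The receptor antagonist gene *Il1rn*, below the level for the comparison, had 8 and 32 UMIs. Immediate early genes, which tissue dissociation raises, were higher as well. All 16 were of sufficient level, 14 were higher in hyperoxia, 12 with an interval above 0, beside 15.0% of all genes, and the median was 0.30 (0.36 in classical monocytes and 0.23 in all other kept cells). *Jun* was at 314 and 557 CPM (0.83) and *Fosb* at 208 and 433 (1.06). The part of dissociation in the inflammatory values, and in the higher level of *Nr4a1*, was not tested.

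**Figure D5:**
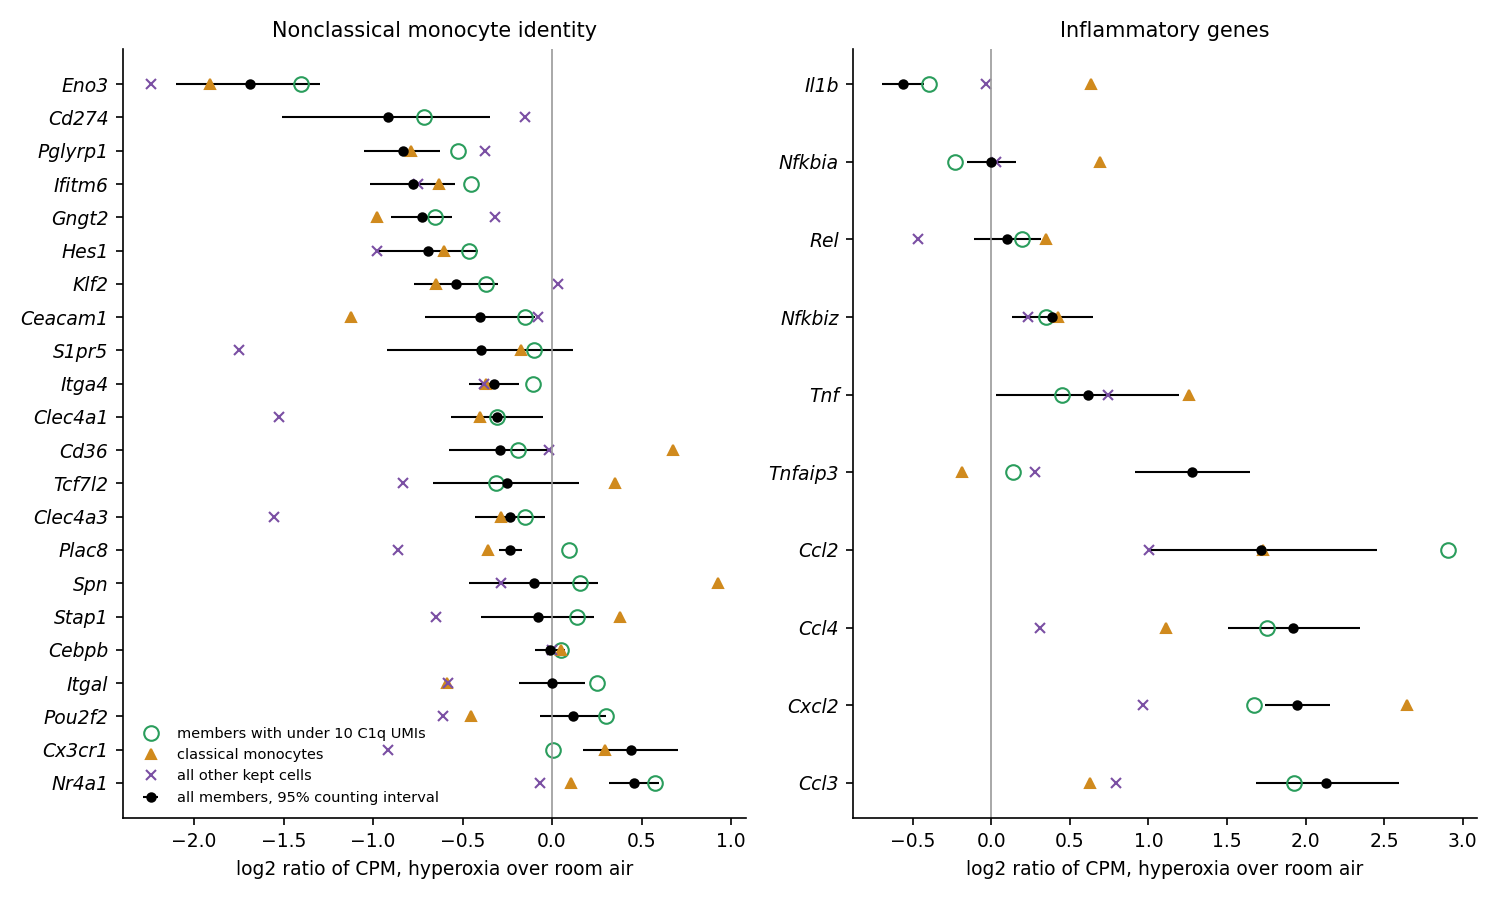
The log2 ratio of CPM, hyperoxia over room air, for nonclassical monocyte identity genes (left) and inflammatory genes (right), with all nonclassical monocytes as black points with exact 95% counting intervals, cells without high C1q as open circles, classical monocytes as triangles and all other kept cells as crosses. Identity genes run from -1.69 for *Eno3* to 0.46 for *Nr4a1*, and inflammatory genes from -0.56 for *Il1b* to 2.13 for *Ccl3*.

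MHC class II genes depended on few cells. With all cells their median log2 ratio was 0.48 over 7 genes, and none was at least 2-fold higher. Without the C1q-high cells it was 1.31 and 4 genes were, beside 1.74% of all genes. *H2-Aa* then stood at 36.5 and 311 CPM (3.09), *H2-Ab1* at 45.9 and 280 (2.61) and *Cd74*, the invariant chain, at 510 and 1261 (1.31). At least 10 class II UMIs were found in 1 of 145 such cells in room air and 6 of 99 in hyperoxia, a difference of 5.37 percentage points (0.468 to 12.1). In C1q-high cells they were found in 5 of 6 and 7 of 16. The class II list had a median of 2.43 in classical monocytes, 0.28 in C1q macrophages and -0.43 in all other kept cells.

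Among receptors for chemoattractants, the median was 0.26 over 8 genes. The chemokine receptor gene *Ccr1* was at 26.6 and 144 CPM (2.44, 1.82 to 3.09), and at 22.9 and 85.9 CPM (1.90) without the C1q-high cells. It was also higher in classical monocytes, at 93.7 and 259 CPM (1.47, 0.94 to 2.03), and in C1q macrophages (1.10, 0.66 to 1.56). The anaphylatoxin receptor genes *C3ar1* and *C5ar1* were at 23.8 and 104 CPM and at 75.1 and 126 CPM, but 88.3% of the *C3ar1* UMIs in hyperoxia were in C1q-high cells, without which it was at 3.13 and 16.5 CPM. *Ccr2*, *Cxcr4* and *Fpr2* were within counting error of even, at 0.07, -0.04 and -0.01.

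Fc receptors and phagocytic receptors had a median of 0.25 over 12 genes, 9 of them higher in hyperoxia, beside 52.0% of all genes. Without the C1q-high cells their median was 0.03, with 6 higher and 6 lower, and that of all genes was also 0.03. The inhibitory Fc receptor gene *Fcgr2b* was at 129 and 265 CPM (1.04, and 0.89 without the C1q-high cells), and the scavenger receptor gene *Msr1* had 1.16 and 1.04. *Fcer1g*, the shared signalling chain of activating Fc receptors, was at 3107 and 2882 CPM (-0.11). *Mertk*, a receptor for apoptotic cells, had 4 and 35 UMIs in all cells and 3.80 and 47.1 CPM, below the level for the comparison. Innate sensors were close to even (median 0.05 over 8 genes), with the LPS co-receptor gene *Cd14* at 589 and 989 CPM (0.75, and 0.62 without the C1q-high cells). The complement list had a median of 0.36 over 6 genes.

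Interstitial macrophage genes, which include the C1q genes, stood mostly in the C1q-high cells. Of 9 such genes, 7 were at least 2-fold higher in hyperoxia with all cells (2.43% of all genes), at a median of 1.62, and 3 without them (1.74% of all genes), at a median of 0.01. *C1qa* was at 336 and 1318 CPM with all cells and at 2.09 and 5.48 CPM without them. *Apoe*, the lipid carrier, was at 3195 and 9674 CPM (1.60), and at 0.55 without the C1q-high cells. The lipid list had a median of 0.34 over 13 genes and of -0.12 without those cells. In it the cholesterol exporter *Abca1* had 2.19 with all cells and -0.38 without. The fatty acid-binding gene *Fabp5* (32.3 and 102 CPM) had 1.66 and 1.48, and the lysosomal protease *Ctsd* 1.40 and 0.76. *Spp1* rested on 1 and 31 UMIs, 87.1% of the latter in 1 cell. Alveolar macrophage genes outside the rule had a median of 0.95 over 4 genes and of 0.97 without the C1q-high cells. Of these, *Chil3* was at 32.3 and 68.6 CPM (1.09, and 1.31 without them), whereas 99.2% of the *Mrc1* UMIs in hyperoxia were in C1q-high cells, and *Krt79*, *Siglecf* and *Cidec* had no UMI in either library.

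Classical monocyte genes differed in both directions (median 0.07 over 11 genes, and 0.28 without the C1q-high cells). *Vcan* was higher, at 39.9 and 148 CPM (1.89, 1.36 to 2.44), and *F13a1* had 0.52, neither with a UMI in a C1q-high cell of hyperoxia, whereas *Ms4a4c* had -0.86 and *Ly6c2* -0.64. The values of classical monocyte genes include all cells with at least 2 UMIs of *Ly6c2* and are not given without them. In classical monocytes themselves *Vcan* had 2.22 (1.74 to 2.74), *F13a1* 0.74 (0.46 to 1.03) and *Ly6c2* -0.40. Growth factor and matrix genes had a median of 0.29 over 6 genes. *Thbs1*, which encodes thrombospondin, was at 900.2 and 1009 CPM (0.16), and *Igf1* at 39.9 and 101 (1.34), with 76.0% of the latter in C1q-high cells, without which it was at 9.39 and 32.9 CPM (1.81).

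Of oxidative stress and iron genes, which NRF2 controls in part, the median was -0.01 over 13. Thioredoxin reductase *Txnrd1* was at 54.2 and 133 CPM (1.30, 0.81 to 1.79) and the cystine transporter *Slc7a11* at 42.8 and 116 (1.44, 0.90 to 1.99), and 3.49% of the latter UMIs in hyperoxia were in C1q-high cells. Both were also higher in classical monocytes (1.18 and 0.93). *Hmox1*, haem oxygenase, was even at 292 and 291 CPM, and *Nqo1* had no UMI in either library.

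p53 targets had a median of 0.07 over 4 genes in nonclassical monocytes, and of 0.27 without the C1q-high cells. The median was 0.43 in classical monocytes, 0.10 in C1q macrophages and 0.75 in all other kept cells. *Cdkn1a*, the p21 cell cycle inhibitor, was at 494 and 652 CPM (0.40, 0.22 to 0.58), against 2.33 in all other kept cells. The survival list had a median of -0.04 over 7 genes and the glycolysis list of -0.24 over 6. *Mki67* had 30 and 9 UMIs, and 79.5% of the room air UMIs of *Top2a* came from 1 cell. The list of glucocorticoid targets and clock genes had a median of -0.12 over 2 genes. Below the level for the comparison, the glucocorticoid target *Fkbp5* had 6 and 55 UMIs (5.70 and 74.0 CPM, log2 ratio 3.70, 2.48 to 5.20). *Tsc22d3*, another such target, was at 327 and 249 CPM (-0.39).

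Of the 12 genes that stood furthest above room air by the bound of the interval nearest to even, *Gdf15*, *Vcam1*, *Fcrls*, *Ms4a7*, *Dab2*, *Stab1* and *C1qa* had 92.2% or more of their hyperoxia UMIs in C1q-high cells. *Rgs1*, a brake on chemokine receptor signalling, was at 35.2 and 295 CPM (3.07, 2.56 to 3.61), and at 3.64 without those cells. *Rasgef1b* had 2.70 and 1.87. *Ccr1*, *Cxcl2* and *Ccl3* complete the group. The 12 that stood furthest below were *H2-Q7*, *H2-Q6*, *Eno3*, *Cxcl10*, *Ifi27l2a*, *Tmsb10*, *Ifi205*, *Lst1*, *Crip1*, *Serpinb2*, *Gm11808* and *Sirpb1c*. *Tmsb10*, an actin-binding thymosin, was at 3244 and 1290 CPM (-1.33, -1.44 to -1.23), and *Lst1*, a transmembrane adaptor gene, at 1498 and 671 (-1.16). Both were also lower in classical monocytes (-0.98 and -1.43) and in all other kept cells (-0.94 and -1.81).

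Transcripts of other cell types were present. Summed over their lists, stromal genes were at 1986 CPM in room air and 2321 in hyperoxia, epithelial genes at 1210.1 and 1126, and neutrophil genes outside the rule at 1226 and 990.1. Dendritic genes were at 21.9 and 29.6 CPM, lymphocyte genes at 33.3 and 53.8, endothelial genes outside the rule at 93.2 and 136, and erythrocyte and platelet genes at 55.1 and 22.9, and no gene of the last 4 groups reached the level for the comparison. *Sftpc*, the surfactant gene of alveolar epithelium, was at 548 and 534 CPM, with 44.4% of the room air UMIs in 1 cell. The stromal gene *Mfap4* was at 475 and 632 CPM (0.41, and -2.06 without the C1q-high cells), and 87.4% and 84.5% of its UMIs came from 1 cell in each library. The stromal list had a median log2 ratio of 0.21 over 6 genes, the epithelial list of -0.09 over 2 and the neutrophil list of -0.25 over 2.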

How the data were processed

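Single-cell RNA sequencing of 2 libraries, 1 for each oxygen condition and each a pool of 8 mice, was used. The authors aligned and counted reads with Cell Ranger against mm10 and deposited raw UMI counts per gene and barcode for 27998 genes, with no normalization. The sources name several Cell Ranger versions (2.1.1 in the submitters' processing notes, 3.1.0 in the file headers and 6.1.1 in the protocol). The deposited counts hold no cell annotation, so cells were chosen by the rule given at the start of the report and no clustering was run.

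Counts were summed over the cells of a population and divided by their total to give CPM. Genes with a mean of at least 50 CPM were compared, and a difference of at least 2-fold is a size, not a test, since there is no replicate. Intervals are 95% and cover counting error only: exact Poisson for levels, Clopper-Pearson for shares and exact conditional for ratios. Shares of cells with a UMI were repeated after thinning each cell to 2000 UMIs with random seed 1. No doublets were removed in the main values beyond the rule's exclusions; the alternative removed 129 and 1239 cells ranked by simulated doublets, at 0.8% per 1000 barcodes. The genes named are those of the rule, of the gene lists, the 12 highest and the 12 lowest in hyperoxia by the interval bound nearest to even among genes at least as high in these cells as in other kept cells, and the 10 highest and 10 lowest against classical monocytes. Other genes named by value are members of those lists. Some genes that this rule names are not reported here singly, and they are kept in counts and medians. The cells and lists were chosen with earlier results of these data known. The C1q-high split was chosen after the data were seen. Gene coordinates are from the GENCODE annotation of mm10 and promoters from RefSeq on GRCm38.p6. Python 3.11.15, NumPy 2.4.6, SciPy 1.17.1, pandas 2.3.3, scikit-learn 1.9.0 and matplotlib 3.10.9 were used, and the scripts were tested on simulated data.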

Additional observations from a re-analysis of the deposited data

How the results depend on the processing

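No paired analysis was possible because each condition is 1 library. With 1 library per condition no value has a replicate error, and genes near 50 CPM rest on few UMIs. Of 266 values of list medians under an alternative, 236 moved by less than the spread allowed and 30 by more, and of 259 values of single genes 196 did not, 54 moved in size and 9 changed sign. The alternatives with cells with fewer than 10 C1q UMIs and cells with fewer than 5 UMIs of *Col1a1*, *Col1a2*, *Col3a1*, *Mfap4* and *Eln* were added after the data were seen.

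The share of nonclassical monocytes was lower in hyperoxia under every alternative run. It differed by -1.90 percentage points of kept cells when cells with any UMI of C1q or *Ly6c2* were left out, and by -21.2 points of *Tyrobp*+ *Csf1r*+ cells when the rule was applied after thinning every cell to 2000 UMIs. Genes at least 2-fold higher numbered 42 with fewer than 10 C1q UMIs and the 50 CPM level applied anew in those cells, 202 at a mean of 20 CPM, 34 at 100 CPM, 2133 with no filter on level and 231 at 1.5-fold. Genes at least 2-fold lower numbered 81 without C1q or *Ly6c2* cells, 97 after thinning, 95 at 20 CPM, 18 at 100 CPM, 2251 with no filter and 203 at 1.5-fold.

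List medians moved as follows. With a rule minimum of 2 UMIs, the interstitial macrophage median was 1.21, stromal 0.51 and class II 0.049. With a minimum of 5 UMIs, interstitial macrophage was 0.68, type I interferon -0.23 and inflammatory 0.51. With doublets removed, stromal was 0.76 and class II 0.88. Without C1q or *Ly6c2* cells, interstitial macrophage was 0.16, complement -0.19, class II 1.67, lipid -0.021 and immediate early 0.66. With fewer than 10 C1q UMIs, interstitial macrophage was 0.0078, class II 1.31, inflammatory 0.40 and lipid -0.12. With fewer than 5 stromal UMIs, interstitial macrophage was 1.49, type I interferon -0.39 and lipid 0.63. As a mean over single cells, interstitial macrophage was 1.96, class II 0.80, growth factors 0.54 and immediate early 0.44. After thinning, class II was 1.0, inflammatory 0.45, growth factors 0.65 and immediate early 0.46. With no filter growth factors were 0.60, and at 100 CPM the classical list was -0.23. The MHC class I median stayed between -0.77 and -0.50.

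*Cxcl10* turned positive with a rule minimum of 5 UMIs (0.72), without C1q or *Ly6c2* cells (2.07) and with fewer than 5 stromal UMIs (0.11), since 1 cell holds most of its UMIs. *Vcam1* turned negative with a minimum of 5 (-0.24), without C1q or *Ly6c2* cells (-1.69) and with fewer than 10 C1q UMIs (-1.78), *Ms4a7* under the last pair (-0.10 and -0.039), and *Stab1* with fewer than 10 C1q UMIs (-0.19). *H2-Q7* stayed between -3.36 and -2.60 and *Cxcl2* between 1.67 and 2.82.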
